A study of Mus musculus with 12 samples.

Results

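The genes of the proteasome were followed in CD115+ monocytes of the spleen and of the peripheral blood of mice, either with an intact liver or 24 h after 70% of it had been resected. Members were the rows whose symbol starts with Psma, Psmb, Psmc, Psmd, Psme, Psmf or Psmg followed by a digit and which held at least 10 counts in at least 3 of the 12 libraries. Of 51 such rows, 50 met the count rule, out of 52553 genes and other features in the tables. The one left out was Psmb11, the thymus-specific catalytic subunit. Of the members, 31 are standard subunits of the assembled particle, 5 belong to the interferon-inducible immunoproteasome set (Psmb8, Psmb9, Psmb10, Psme1 and Psme2) and 7 are assembly chaperones. The remaining 7 are the testis subunit Psma8, the activator genes Psme2b, Psme3 and Psme4, the inhibitor Psmf1, and Psmc3ip and Psme3ip1, which match by symbol but are not subunits. All 50 passed the filter on low counts and were tested.

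The proteasome degrades proteins tagged with ubiquitin. Its barrel-shaped core is made of outer rings of alpha subunits, encoded by Psma genes, and inner rings of beta subunits, encoded by Psmb genes. A regulatory particle caps the core: a base with the Psmc ATPases unfolds the substrate, and a lid of Psmd subunits removes the ubiquitin. Cleavage is done by the beta subunits Psmb5 (chymotrypsin-like), Psmb6 (caspase-like) and Psmb7 (trypsin-like). In immune cells and after interferon gamma they are replaced in newly built particles by Psmb8, Psmb9 and Psmb10, and the Psme1 and Psme2 proteins form the PA28 cap. This immunoproteasome is known for making peptides that are loaded on class I molecules, and it is a constant feature of many blood leukocytes.

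CD115 is the receptor for macrophage colony-stimulating factor (gene Csf1r), and the cells were taken with magnetic beads from male C57BL/6 mice. There were 4 groups of 3 libraries: spleen of intact mice, spleen 24 h after resection, blood of intact mice and blood 24 h after resection. The spleen was left in place in all of them, the controls are labelled intact, and no sham-operated group was analysed here. Each library came from cells pooled over 5 mice, so p-values measure the spread between pools, and a difference in the share of a cell type cannot be told apart from a difference in RNA per cell.

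Libraries held 36990033 to 46401368 estimated counts. Haemoglobin genes took 0.0814% to 3.47% of the counts in spleen and 13.2% to 34.2% in blood. Csf1r, which defines the sorted cells, was present in every library. Other cell types were present too, and they moved with the groups. The 8 neutrophil markers summed to 719 to 1534 CPM in intact and 4485 to 13161 CPM in resected spleen, and to 101 to 362 and 3631 to 18822 CPM in blood. The 6 B-cell markers ran from 4055 to 4599 and from 1141 to 3508 CPM in spleen, and from 510 to 2283 and from 701 to 1717 CPM in blood. CPM are counts scaled to a common TMM library size (1e6). Intact blood library 3 stood apart from the other intact blood libraries: its 6 proliferation markers summed to 1717 CPM against 96.8 and 119, and its 11 interferon response genes to 183 CPM against 540 and 571. It also held less Csf1r (209 CPM against 467 and 363), less of the 8 monocyte markers summed (3022 CPM against 8484 and 5858) and more of the T-cell markers summed (1061 CPM against 484 and 444). Of these T-cell markers, Cd8a went the other way, at 12.9 CPM against 70.5 and 65.3. Most of the main results that rest on it are given with and without it.

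Per length of the longest coding transcript, in intact spleen, the standard subunits ran from 19.1 CPM per kb for the lid gene Psmd12 to 75.1 for the beta gene Psmb3. The immunoproteasome genes lay in or above that range, at 97.8 CPM per kb for Psmb8, 50.6 for Psmb9, 55.7 for Psmb10, 109 for Psme1 and 83.4 for Psme2. On the same scale the catalytic subunits that they replace were at 36.6 for Psmb5, 56.4 for Psmb6 and 58.5 for Psmb7. In resected blood the order within the first pair was the other way round, with Psmb8 at 55.3 and Psmb5 at 62.7 CPM per kb. The assembly chaperones lay lower, from 5.52 CPM per kb for Psmd9 to 12.7 for Psmd10 in intact spleen.

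**Figure D1:**
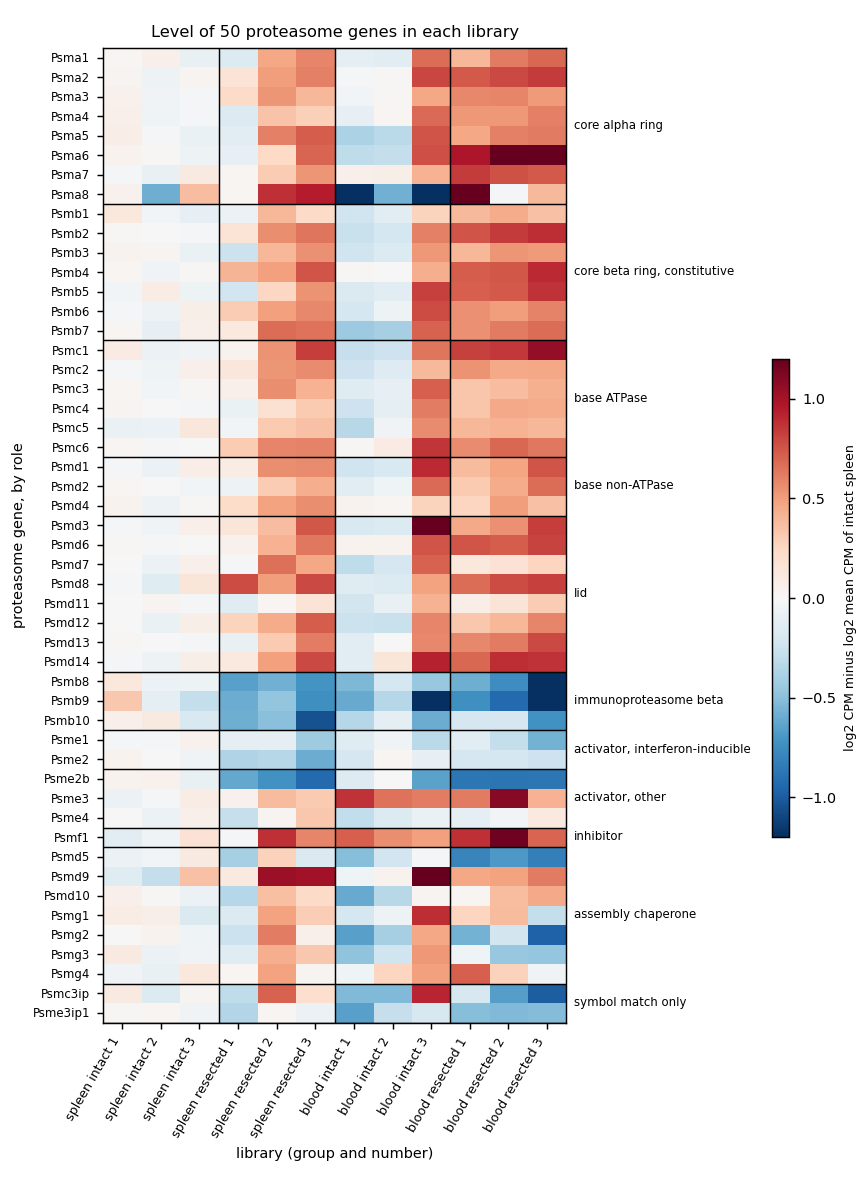
Level of each of the 50 proteasome genes (rows, by role) in each of the 12 libraries (columns), as log2 CPM minus the log2 mean CPM of intact spleen; red is higher and blue lower, and values beyond the scale take its end colours. The standard subunits are red in the resected blood libraries, in resected spleen libraries 2 and 3 and in intact blood library 3, while Psmb8, Psmb9 and Psme2b are blue in all resected libraries. Relative to intact spleen, Psmb8 and Psmb9 are also blue in every intact blood library, and Psme2b in intact blood libraries 1 and 3.

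In blood monocytes all 31 standard subunits had a positive log2 fold change after resection, and 5 of them passed the test. The fold changes ran from 0.04 for Psmd7 to 1.07 for Psma6, with a median of 0.40, where the median over all 20135 features tested was -0.10 and 45.2% of them were positive. Genes were called at a p under 0.05, from the quasi-likelihood test of edgeR after Benjamini-Hochberg adjustment over all features. By this rule 5 of the 50 members rose and 1 fell. The background in this comparison was 10.8% of all features called higher and 10.3% called lower, so 5 of 50 members was close to the background share. At an unadjusted p under 0.05 there were 13 members higher and 3 lower, and DESeq2 called 12 higher and 3 lower at its adjusted p, where it called 15.4% and 15.0% of features. The share of all features at the unadjusted p is not given, so those counts stand without a background. For 11 members every resected blood library was above every intact one and for 4 below, patterns held by 19.4% and 19.0% of features. All 5 that rose were standard subunits: Psma6, Psma7, Psmb2, Psmb4 and Psmd8.

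Psmb4 is a beta-ring subunit with no catalytic site. Its levels were 80.7, 80.1 and 108 CPM in the intact blood libraries and 132, 133 and 149 CPM in the resected ones. The groups did not overlap, and Psmb4 rose by 0.62 on the log2 scale (SE 0.15, edgeR adjusted p = 0.0154). Psma7, of the alpha ring, was at 63.4, 63.8 and 81.0 CPM in intact and at 109, 103 and 101 CPM in resected blood. Again every resected library lay above every intact one, and the log2 fold change was 0.59 (SE 0.15, edgeR adjusted p = 0.0216).

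Psmd8, a lid subunit, had 73.9, 72.8 and 114 CPM in intact blood and 129.9, 139.8 and 144 CPM in resected blood. The groups were separate, with a log2 fold change of 0.67 (SE 0.18, edgeR adjusted p = 0.0278). In each of these 3 genes intact blood library 3 was the highest of its group. The calls for Psma7 and Psmb4 were kept in all 12 fits that left out 1 library, and that for Psmd8 in 11, being lost without intact blood library 2.

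Psma6 and Psmb2 are named because so few members rose, after their values were seen. The alpha-ring gene Psma6 had the largest fold change among the standard subunits. It was at 56.4, 56.8 and 118 CPM in intact and 136, 164 and 187 CPM in resected blood, with a log2 fold change of 1.07 (SE 0.30, edgeR adjusted p = 0.0320). Psmb2, of the beta ring, was at 32.9, 34.4 and 60.3 CPM in intact and 66.9, 70.8 and 73.2 CPM in resected blood, with a log2 fold change of 0.72 (SE 0.22, edgeR adjusted p = 0.0419). Neither gene had overlapping groups, but both calls were unstable. The call for Psma6 was kept in 6 of the 12 fits leaving out 1 library and was lost without libraries 1 or 2 of intact spleen or of intact blood, or libraries 2 or 3 of resected blood. The call for Psmb2 was kept in 4 and was lost without any intact spleen library, resected spleen library 2, libraries 1 or 2 of intact blood, or libraries 2 or 3 of resected blood. The log2 fold change over these fits ran from 0.94 to 1.51 for Psma6 and from 0.63 to 1.06 for Psmb2. When the 2 blood groups were fitted on their own, none of the 5 was called.

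The direction was shared across the parts of the particle. The median log2 fold change was 0.45 for the 7 alpha-ring genes, of which 2 rose, and 0.52 for the 7 beta-ring genes, of which 2 rose. For the 9 genes of the base it was 0.28, with none called, and for the 8 of the lid 0.40, with 1 called. Members at the ends of the range are named after their values were seen. The base ATPase Psmc1 had a log2 fold change of 0.80 (SE 0.26, edgeR adjusted p = 0.0548). The lid genes Psmd7 and Psmd11 were at 0.04 and 0.12, with adjusted p-values of 0.930 and 0.654 in edgeR.

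**Figure D2:**
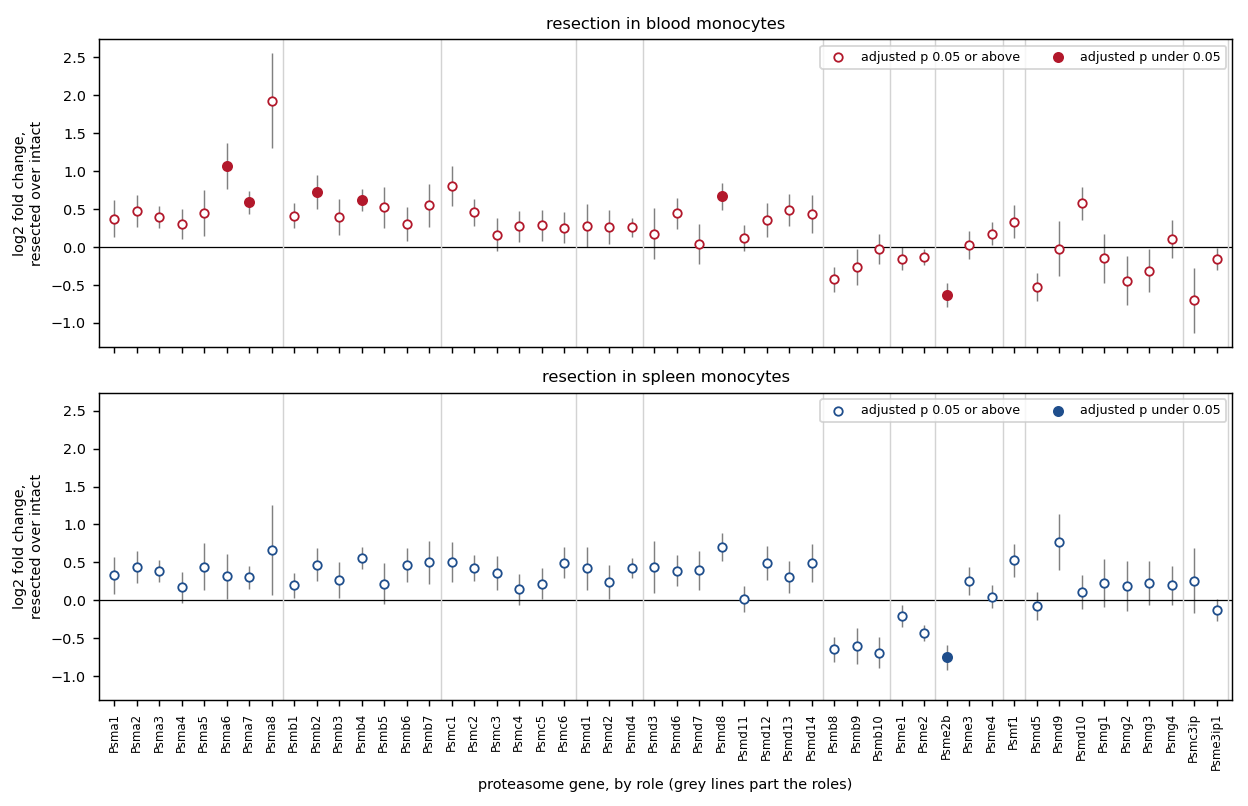
Log2 fold change of resected over intact mice for each of the 50 genes, in blood (upper panel) and spleen monocytes (lower panel); points are edgeR estimates, bars 1 SE, and filled points have an adjusted p under 0.05. All 31 standard subunits lie above 0 in both panels, the 5 immunoproteasome genes Psmb8, Psmb9, Psmb10, Psme1 and Psme2 lie below 0 in both, and 6 points are filled in blood and 1 in spleen.

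How many members were called in blood depended on intact blood library 3. All 31 standard subunits were higher in it than in intact blood libraries 1 and 2, and for 21 of them it was at or above the lowest resected blood library. As a median over the 31 genes, on the log2 scale relative to the mean of intact spleen, intact blood libraries 1 and 2 were at -0.19 and -0.12 and library 3 at 0.67. The resected blood libraries were at 0.53, 0.59 and 0.67. All 31 genes had every resected blood library above intact blood libraries 1 and 2, a pattern held by 27.9% of all features. Without library 3, an alternative added after seeing the data, 29 members rose, 28 of them standard subunits, and 1 fell, against a background of 11.1% and 10.5% of features. The median log2 fold change of the standard subunits was then 0.70. Library 3 was set aside after these genes were seen to be high in it. The 27.9%, 11.1% and 10.5% of features are therefore not a like background. Library 3 also had the highest proliferation markers and the lowest B-cell and interferon response sums of the blood libraries. The proliferation sum was 1717 CPM in library 3 and 235, 253 and 335 CPM in the resected blood libraries. The part of these markers in the result was not tested.

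In spleen monocytes the standard subunits showed the same sign after resection, but none passed the test. All 31 had a positive log2 fold change, from 0.02 for Psmd11 to 0.70 for Psmd8, with a median of 0.39 against 0.05 over all features, of which 53.6% were positive. No member rose and 1 fell by edgeR, where 1.02% of features were called higher and 1.03% lower. At an unadjusted p under 0.05, 7 members were higher and 5 lower in edgeR, and DESeq2 called 4 higher and 4 lower at its adjusted p, against 7.25% and 6.52% of features. The counts at the unadjusted p again stand without a background. For 16 of the members, all standard subunits, every resected spleen library was above every intact one, a pattern held by 17.4% of all features.

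The genes with the smallest p-values in blood had the following values in spleen. Psmd8 was at 80.5, 73.9 and 89.98 CPM in intact and at 140.2, 115.4 and 141 CPM in resected spleen, with a log2 fold change of 0.70 (SE 0.18, edgeR adjusted p = 0.0758). Psmb4 was at 81.1, 77.7 and 80.4 CPM in intact and at 106, 113 and 134 CPM in resected spleen, with a log2 fold change of 0.56 (SE 0.15, edgeR adjusted p = 0.0768). Both had separate groups in spleen, while Psma7 overlapped, with 57.1 to 65.2 CPM in intact and 61.8 to 87.9 CPM in resected spleen. Its log2 fold change was 0.30 (SE 0.15, edgeR adjusted p = 0.283).

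Resected spleen library 1 differed from the other resected spleen libraries. As a median over the 31 standard subunits it was at 0.05 on the log2 scale relative to the mean of intact spleen, where libraries 2 and 3 were at 0.48 and 0.58 and the intact spleen libraries between -0.04 and 0.02. Libraries 2 and 3 were above all intact spleen libraries for 30 of the 31 genes, a pattern held by 26.4% of all features, whereas library 1 was below the highest intact library for 15. Library 1 was set apart by the values of these same genes, so the 26.4% is not a like background. The proliferation markers summed to 332 CPM in resected library 1 and to 983 and 742 CPM in libraries 2 and 3, against 161 to 344 CPM in intact spleen. None of these 6 markers was called in either tissue, and their part in the result was not tested. The number of members called in spleen also depended on a blood library. Without intact blood library 3, 10 members rose and 3 fell in spleen, where 5.09% and 4.50% of the 21062 features then tested were called, and the cause was not tested.

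The immunoproteasome genes went the other way. In spleen all 5 had lower levels after resection, the median log2 fold change being -0.60, and for all 5 every resected library was below every intact one, a pattern held by 17.7% of features. None of the 5 passed the adjusted threshold in edgeR with all libraries, groups and no block. Psmb8 and Psme2 were called lower without intact blood library 3, Psmb8 also without resected blood library 3 and with the 2 spleen groups alone, and Psmb10 with the replicate number as a block. At an unadjusted p under 0.05 there were 4 of the 5, with no share of all features given. DESeq2 called 3 lower at its adjusted p, where it called 6.52% of features lower. In blood all 5 had a negative log2 fold change with a median of -0.15, close to the median of -0.10 over all features, and none was called. The 3 catalytic immunoproteasome genes were also set against the subunits they replace within the same library, as described after the single genes.

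The stretches upstream of 5 of the 6 catalytic subunit genes are shown because those genes had opposite signs after resection in the same libraries. They are the last 100 bases before the annotated gene start, on the gene's strand, from RefSeq on GRCm38.p6 (the submitters' notes name GRCm39 for the data, and no coordinates were converted). Capitals mark matches, on either strand, to one of 4 short motifs: TGACNNNGC (antioxidant response element, the type of site bound by Nfe2l1 and Nfe2l2), CCAAT (the CCAAT box), TTCNNNGAA (gamma-activated site, found in interferon gamma response genes) and the interferon regulatory factor element (GAAA, any 2 bases, GAAA). The windows are chr14:54617996-54618095 (minus strand) for Psmb5, chr11:70525257-70525356 (plus) for Psmb6, chr17:34198095-34198194 (plus) for Psmb8, chr17:34187331-34187430 (minus) for Psmb9 and chr8:105938393-105938492 (minus) for Psmb10. Psmb7 had no window in the table.
Psmb5: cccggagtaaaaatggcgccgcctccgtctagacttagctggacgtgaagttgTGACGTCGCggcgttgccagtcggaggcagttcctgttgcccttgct
Psmb6: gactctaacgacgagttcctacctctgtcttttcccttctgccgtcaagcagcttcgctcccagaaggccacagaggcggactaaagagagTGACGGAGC
Psmb8: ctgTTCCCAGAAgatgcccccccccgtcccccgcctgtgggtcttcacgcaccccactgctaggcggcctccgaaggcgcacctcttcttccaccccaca
Psmb9: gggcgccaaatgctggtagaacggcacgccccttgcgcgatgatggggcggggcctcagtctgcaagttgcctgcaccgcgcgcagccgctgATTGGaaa
Psmb10: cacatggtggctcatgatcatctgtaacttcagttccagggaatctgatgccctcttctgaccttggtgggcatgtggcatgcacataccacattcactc
Psmb5 and Psmb6 hold a TGACNNNGC match, Psmb8 a TTCNNNGAA match and Psmb9 a CCAAT match on the opposite strand (read as ATTGG), and Psmb10 holds none of the 4 in these bases.

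Over the 250 bases before the start, 42 of the 50 members had a window. The motif TGACNNNGC was in 4 of 25 standard subunit genes (16.0%: Psmb5, Psmb6, Psmc6 and Psmd12), in 0 of the 5 immunoproteasome genes and in 11.5% of 27025 genes with a window. CCAAT was in 10 of 25 and 1 of 5, against 37.5% of all genes. TTCNNNGAA was in 0 of 25 and 1 of 5, against 8.13%, and the interferon regulatory factor element in 2 of 25 and 0 of 5, against 3.46%. No match to one motif overlapped a match to another. A match describes the letters of the window and does not show that a factor binds there.

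Psmb8 replaces Psmb5 in the immunoproteasome. In spleen it was at 173, 152 and 153 CPM in intact and at 101, 107 and 97.2 CPM in resected mice, with a log2 fold change of -0.65 (SE 0.17, edgeR adjusted p = 0.0714). In blood it was at 109, 138 and 116 CPM in intact and at 106, 95.0 and 69.3 CPM in resected mice, with a log2 fold change of -0.43 (SE 0.16, edgeR adjusted p = 0.0919). The groups were separate in both tissues, by a small margin in blood.

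Psmb9 replaces Psmb6, and its gene lies beside Tap1 and Psmb8 in the class II region. It was at 85.4, 63.5 and 56.2 CPM in intact and at 45.2, 49.1 and 41.0 CPM in resected spleen, with a log2 fold change of -0.60 (SE 0.24, edgeR adjusted p = 0.192). Its blood levels were 44.8, 53.8 and 28.4 CPM in intact and 41.0, 35.8 and 29.3 CPM in resected mice, with a log2 fold change of -0.26 (SE 0.24, edgeR adjusted p = 0.477). The blood groups overlapped, and the lowest value was that of intact library 3.

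Psmb10 replaces Psmb7. It was at 76.1, 78.6 and 64.3 CPM in intact and at 48.6, 51.7 and 35.5 CPM in resected spleen, with a log2 fold change of -0.69 (SE 0.20, edgeR adjusted p = 0.0972). Blood libraries held 57.4, 67.8 and 48.4 CPM in intact and 63.3, 63.5 and 44.2 CPM in resected mice, with a log2 fold change of -0.02 (SE 0.20, edgeR adjusted p = 0.954). The blood groups overlapped fully, and the sign of the estimate there changed with the fit.

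The subunits they replace had these values. Psmb5 was at 32.1, 35.0 and 31.7 CPM in intact and 28.1, 39.1 and 47.8 CPM in resected spleen, and at 29.3, 30.1 and 58.3 CPM in intact and 54.2, 55.0 and 59.95 CPM in resected blood. Psmb6 was at 44.6, 43.2 and 47.3 CPM in intact and 55.7, 63.3 and 67.4 CPM in resected spleen, and at 39.0, 43.1 and 77.6 CPM in intact and 65.8, 63.9 and 68.1 CPM in resected blood. Psmb7 was at 69.2, 63.4 and 71.0 CPM in intact and 73.7, 108 and 106 CPM in resected spleen, and at 50.1, 51.5 and 111 CPM in intact and 99.1, 104 and 108 CPM in resected blood. In each of the 3 genes intact blood library 3 reached or passed the resected level while libraries 1 and 2 did not. In blood the log2 fold changes were 0.52 (SE 0.27), 0.31 (SE 0.22) and 0.55 (SE 0.28), with edgeR adjusted p-values of 0.192, 0.355 and 0.190. Without intact blood library 3 they were 0.92, 0.68 and 1.02, with edgeR adjusted p-values of 0.0114, 0.0037 and 0.0040. In spleen they were 0.22 (SE 0.27), 0.46 (SE 0.22) and 0.50 (SE 0.28), with edgeR adjusted p-values of 0.701, 0.271 and 0.350.

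**Figure D3:**
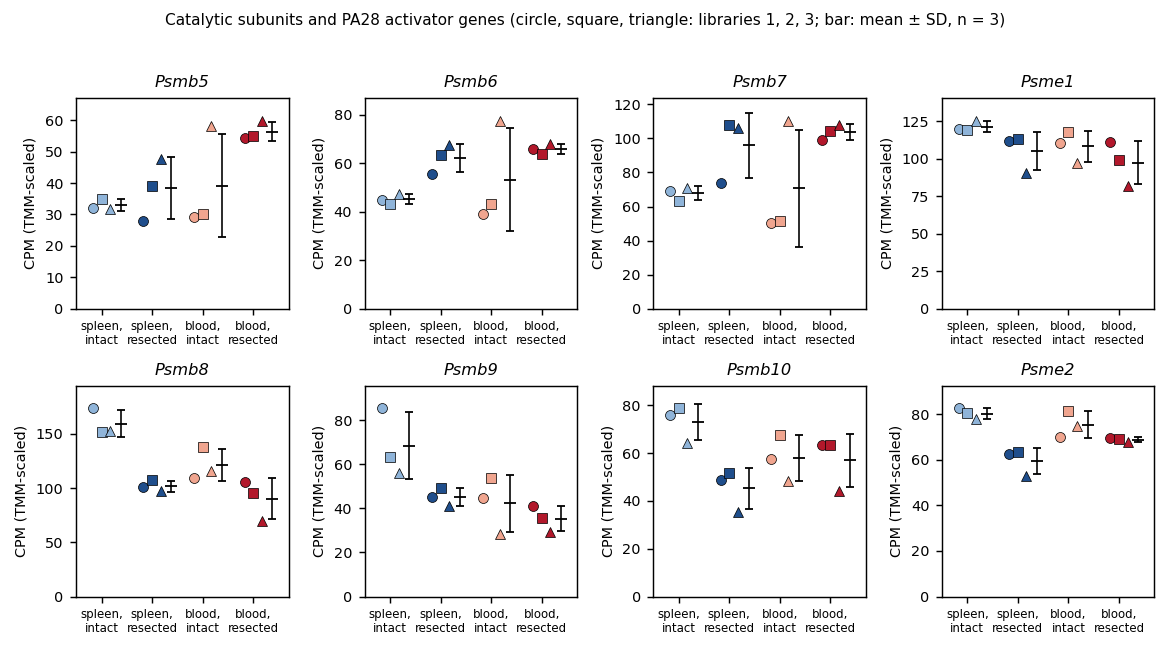
CPM of the constitutive catalytic subunits Psmb5, Psmb6 and Psmb7, the immunoproteasome subunits Psmb8, Psmb9 and Psmb10 and the PA28 activator genes Psme1 and Psme2 in every library; circles, squares and triangles are libraries 1, 2 and 3 of a group, and bars are the mean and SD of 3. Psmb8 in spleen goes from 159 ± 12.2 to 102 ± 4.98 CPM after resection, and intact blood library 3 is the high triangle in the panels of Psmb5, Psmb6 and Psmb7.

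The ratio of an immunoproteasome subunit to its counterpart in the same library does not depend on library size or on how many counts haemoglobin took. It combines the counts of the single genes above, with the pairs chosen when earlier results were known, so it is not independent evidence of their directions. The log2 ratio of Psmb8 to Psmb5 counts was 2.43, 2.11 and 2.27 in intact spleen and 1.85, 1.45 and 1.02 in resected spleen. It was 1.90, 2.19 and 0.99 in intact blood and 0.97, 0.79 and 0.21 in resected blood. As geometric means, there were 4.83 Psmb8 counts for each Psmb5 count in intact spleen, 2.72 in resected spleen, 3.24 in intact blood and 1.57 in resected blood. Every resected library lay below every intact one of its tissue, and intact blood library 3 was next to the resected ones. The counts in these ratios are not scaled to transcript length, which is 1628 bases for Psmb8 and 899 for Psmb5 (longest coding transcript). Per kb, Psmb8 was below Psmb5 in resected blood, at 55.3 and 62.7 CPM.

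Resection was tested within tissues by an exact two-sided permutation test, in which libraries were exchanged only within their tissue, so that 400 arrangements gave a smallest p of 0.0050. The 6 tests of this family were adjusted by Benjamini-Hochberg. For Psmb8 over Psmb5 the resected libraries differed from the intact ones by -0.93 on the log2 scale as a mean over both tissues (blood -1.04, spleen -0.83; exact p = 0.0050, adjusted 0.030). The effect was in the same direction in each tissue, where 3 libraries against 3 could not give a p below 0.10.

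For Psmb9 over Psmb6 the log2 ratios were 0.94, 0.56 and 0.25 in intact spleen, -0.30, -0.37 and -0.72 in resected spleen, 0.20, 0.32 and -1.45 in intact blood and -0.68, -0.84 and -1.21 in resected blood. The mean difference with resection was -0.82 (blood -0.60, spleen -1.04; exact p = 0.035, adjusted 0.042). In blood the groups overlapped through intact library 3, which was the lowest of all 12. This call did not stand in 8 of the 12 sets leaving out 1 library, where the difference ran from -0.66 to -0.88 and the exact p from 0.050 to 0.085. They were the sets without intact spleen library 1, without resected spleen library 2 or 3, without intact blood library 1 or 2, and without any 1 of the resected blood libraries. Without intact blood library 3 the difference was -1.11 (exact p = 0.0050).

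For Psmb10 over Psmb7 the log2 ratios were 0.14, 0.31 and -0.14 in intact spleen, -0.60, -1.06 and -1.58 in resected spleen, 0.20, 0.40 and -1.19 in intact blood and -0.65, -0.72 and -1.29 in resected blood. The mean difference was -0.93 (blood -0.68, spleen -1.18; exact p = 0.025, adjusted 0.0375). Without resected blood library 3 it was -0.83 with an exact p of 0.050, and without intact blood library 3 it was -1.18 with an exact p of 0.0050. The spleen groups of all 3 ratios were separate, and in blood only those of Psmb8 over Psmb5.

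Between tissues, as a mean over the intact and the resected state, the ratio of Psmb8 to Psmb5 was lower in blood than in spleen. The log2 difference was -0.68 (intact -0.58, resected -0.79; exact p = 0.015, adjusted 0.0375). The tissues were separate after resection but overlapped in intact mice, where blood was at 1.90, 2.19 and 0.99 and spleen at 2.43, 2.11 and 2.27. The lowest of these was intact blood library 3, and for this ratio no difference without it is given. The ratio of Psmb9 to Psmb6 differed by -0.67 (exact p = 0.020, adjusted 0.0375). This became -0.58 (exact p = 0.085) without intact spleen library 1, -0.68 (exact p = 0.070) without intact spleen library 2 and -0.38 (exact p = 0.035) without intact blood library 3. For Psmb10 over Psmb7 no difference between tissues was detected (log2 difference -0.05, exact p = 0.88, adjusted 0.88).

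**Figure D4:**
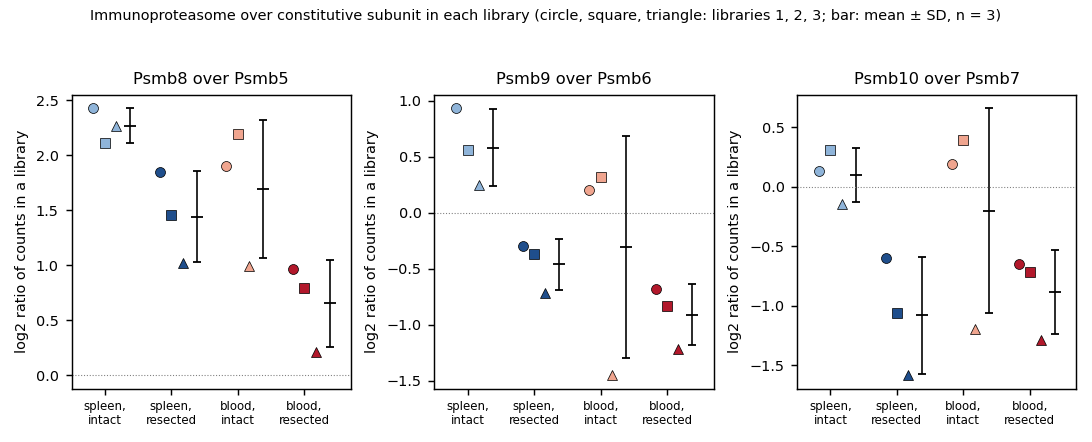
Log2 ratio of estimated counts of Psmb8 to Psmb5, Psmb9 to Psmb6 and Psmb10 to Psmb7 in each library; circles, squares and triangles are libraries 1, 2 and 3 of a group, bars are the mean and SD of 3, and the dotted line marks equal counts. The resected libraries are below the intact ones in spleen in all 3 panels, and intact blood library 3 is at 0.99, -1.45 and -1.19. Counts are not scaled to transcript length.

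Psme1 and Psme2 encode the PA28 activator, and Psme2b is a copy of Psme2. Psme1 was at 119, 119 and 125 CPM in intact and at 112, 113 and 90.5 CPM in resected spleen, with a log2 fold change of -0.21 (SE 0.15, edgeR adjusted p = 0.455). In blood it was at 110.0, 118 and 96.8 CPM in intact and at 111, 99.4 and 81.8 CPM in resected mice, with a log2 fold change of -0.15 (SE 0.15, edgeR adjusted p = 0.495). The spleen groups were separate and the blood groups overlapped. Psme2 was at 82.4, 80.3 and 77.8 CPM in intact and at 62.5, 63.2 and 53.0 CPM in resected spleen, with a log2 fold change of -0.43 (SE 0.11, edgeR adjusted p = 0.0700). In blood it was at 69.9, 81.4 and 74.9 CPM in intact and at 69.7, 69.2 and 67.6 CPM in resected mice, with a log2 fold change of -0.13 (SE 0.11, edgeR adjusted p = 0.416). The groups of Psme2 were separate in both tissues, in blood by less than 1 CPM.

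Psme2b was the one member that fell in both tissues. In spleen it was at 55.8, 56.2 and 50.9 CPM in intact and at 35.4, 32.7 and 28.5 CPM in resected mice, a log2 fold change of -0.75 (SE 0.16, edgeR adjusted p = 0.0480). The blood levels were 48.9, 54.4 and 34.8 CPM in intact and 29.8, 29.6 and 29.8 CPM in resected mice, a log2 fold change of -0.63 (SE 0.16, edgeR adjusted p = 0.0215). No resected library reached an intact one in either tissue. The spleen call was kept in 1 of 12 fits leaving out 1 library, the one without intact blood library 3 (edgeR adjusted p = 0.0093), with log2 fold changes from -0.83 to -0.67 over the 12. It was also lost with the replicate number as a block (edgeR adjusted p = 0.0528). The blood call was kept in 7 of 12, was lost without intact blood library 1 or 2 or any 1 resected blood library, and had log2 fold changes from -0.80 to -0.48.

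The coding sequences of Psme2 and Psme2b, 720 bases each, are 99.3% identical and differ at 5 positions, so reads may be split between them in a way that is uncertain, whereas Psme2 and Psme1 are 61.4% identical. Both genes were therefore also summed, an alternative added after seeing the data. The sum was at 138, 136 and 129 CPM in intact and 97.9, 95.9 and 81.5 CPM in resected spleen, and fell by 0.55 on the log2 scale (SE 0.12, edgeR adjusted p = 0.0490). In blood it was at 119, 136 and 109.7 CPM in intact and 99.5, 98.7 and 97.4 CPM in resected mice, with a log2 fold change of -0.30 (SE 0.12, edgeR adjusted p = 0.1002).

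None of the other activators, nor the inhibitor, was called with resection. Psme3, the nuclear activator PA28 gamma, was at 135, 139.6 and 151 CPM in intact and 147, 185 and 176 CPM in resected spleen. In blood its levels were 258, 223 and 216 CPM in intact and 218, 303 and 189 CPM in resected mice. It was the one member called between tissues of intact mice, higher in blood by 0.71 on the log2 scale (SE 0.18, edgeR adjusted p = 0.0375), where 4.51% of features were called higher and 4.66% lower. That call was kept in 6 of 12 fits leaving out 1 library and was lost without any intact spleen library, libraries 1 or 2 of intact blood or resected blood library 1, with log2 fold changes from 0.68 to 0.87. With the replicate number as a block Psme3 was not called (edgeR adjusted p = 0.0569). Its resection effects were 0.03 in blood and 0.25 in spleen, with edgeR adjusted p-values of 0.938 and 0.462. For Psme4, the activator PA200, they were 0.18 and 0.05, with edgeR adjusted p-values of 0.434 and 0.901. For Psmf1, the inhibitor PI31, they were 0.34 and 0.53, with edgeR adjusted p-values of 0.289 and 0.197.

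The 7 assembly chaperones had a median log2 fold change of -0.15 in blood, 2 positive and 5 negative, and of 0.20 in spleen, 6 positive and 1 negative. Without intact blood library 3 the blood median was 0.24, with 5 of the 7 positive. None was called with resection in either tissue by edgeR with all libraries. In blood DESeq2 called Psmd10 higher and Psmd5 lower, where it called 15.4% and 15.0% of features. Also in blood, edgeR called Psmd10 higher without intact blood library 3 and Psmd5 lower without resected spleen library 2. With all libraries Psmd10 had a log2 fold change of 0.58 in blood (SE 0.22, edgeR adjusted p = 0.0906). Psmd5, which holds base ATPases during assembly, was at 25.3, 30.9 and 35.5 CPM in intact and at 20.8, 22.4 and 20.5 CPM in resected blood, with a log2 fold change of -0.52 (SE 0.18, edgeR adjusted p = 0.0673). In spleen it was at 34.3, 35.3 and 38.9 CPM in intact and at 27.3, 43.8 and 32.2 CPM in resected mice, with a log2 fold change of -0.07 (SE 0.18, edgeR adjusted p = 0.872). After resection it was lower in blood than in spleen by a log2 difference of -0.70 (SE 0.18, edgeR adjusted p = 0.0265), the one member called in that comparison, where 8.54% of features were called higher and 10.6% lower. This call was kept in 3 of 12 fits leaving out 1 library, leaving out resected spleen library 1 or libraries 1 or 3 of intact blood, with log2 differences from -0.74 to -0.39. Without intact blood library 3, 11 members were called higher in blood after resection, against 14.0% of features, and DESeq2 called 6 higher with all libraries, against 15.0%.

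Psma8 takes the place of Psma7 in the testis. It held 3 to 29 counts in a library and had at least 10 in 9 of the 12. Its levels were 0.358, 0.230 and 0.447 CPM in intact and 0.350, 0.633 and 0.664 CPM in resected spleen, and 0.138, 0.231 and 0.0655 CPM in intact and 0.885, 0.340 and 0.450 CPM in resected blood. A count of 3 corresponded to 0.0626 to 0.102 CPM, so the lowest intact blood library was at that limit. Its log2 fold change in blood, 1.93, had an SE of 0.62 (edgeR adjusted p = 0.0508).

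Apart from Psme3 and Psmd5 the members did not pass the test between tissues. In intact mice 30 of the 31 standard subunits had a positive log2 difference of blood over spleen, with a median of 0.16 (all features -0.02, 48.9% positive), but without intact blood library 3 this held for 11 of 31. After resection it was 28 of 31, with a median of 0.20 (all features -0.14, 42.9% positive). The immunoproteasome medians were -0.34 in intact mice and -0.11 after resection. Without intact blood library 3 the first was -0.12, with 2 of the 5 genes positive, and over the fits leaving out 1 library the second ran from -0.12 to 0.11. In intact mice Psmb8 differed by -0.40 (SE 0.16, edgeR adjusted p = 0.164), Psmb9 by -0.69 (SE 0.24, edgeR adjusted p = 0.104) and Psmb10 by -0.34 (SE 0.20, edgeR adjusted p = 0.331). Leaving out the haemoglobin genes moved the median over all features from -0.02 to 0.10 in intact mice and from -0.14 to -0.02 after resection.

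Whether resection acted differently in the tissues was tested as the difference of the log2 fold changes, blood minus spleen. No member was called by edgeR, where 0.219% of features were called higher and 0.0646% lower. The one member with an unadjusted p under 0.05 was Psmb10, with a difference of 0.67 (SE 0.28, edgeR adjusted p = 0.267). For Psmb8 the difference was 0.22 (edgeR adjusted p = 0.660), for Psmb4 0.07 (0.908) and for Psmd8 -0.03 (0.975).

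The genes that work with the proteasome were taken from a list of 41, of which 40 were tested. In blood 5 rose and 5 fell with resection, against 10.8% and 10.3% of all features, and in spleen 0 rose and 1 fell, against 1.02% and 1.03%. Of the 11 tested genes for other proteasome parts and handling, 3 rose. Sem1, a small lid subunit, was at 65.6, 62.7 and 80.9 CPM in intact and at 138, 139.8 and 179 CPM in resected blood, a log2 fold change of 1.13 (SE 0.22, edgeR adjusted p = 0.00698). Pomp, the chaperone that matures the core, was at 41.9, 39.0 and 55.4 CPM in intact and at 70.4, 72.2 and 71.7 CPM in resected blood, a log2 fold change of 0.65 (SE 0.16, edgeR adjusted p = 0.0197). Zfand5, which binds the proteasome and raises its activity, had a log2 fold change of 0.75 (SE 0.14, edgeR adjusted p = 0.00632). For all 3 the blood groups were separate and the call was kept in all 12 fits leaving out 1 library. In spleen they were not called, with log2 fold changes of 0.64, 0.16 and 0.57 and edgeR adjusted p-values of 0.134, 0.626 and 0.0700.

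Among the 8 class I peptide loading genes, 2 rose and 2 fell in blood. The general endoplasmic reticulum chaperones Calr and Pdia3 rose by 1.11 (SE 0.18, edgeR adjusted p = 0.00309) and 1.03 (SE 0.15, edgeR adjusted p = 0.00209) on the log2 scale. Tap2, a subunit of the peptide transporter, had 140.4, 152 and 134 CPM in intact and 87.4, 99.0 and 99.1 CPM in resected blood, and fell by 0.58 (SE 0.11, edgeR adjusted p = 0.00554). Tapbpl, a peptide editor for class I molecules, fell by 0.75 (SE 0.13, edgeR adjusted p = 0.00412). Tap1, the other transporter subunit, had log2 fold changes of -0.46 in blood and -0.77 in spleen, with edgeR adjusted p-values of 0.323 and 0.205. In blood its log2 fold change ran from -0.79 to -0.21 over the fits leaving out 1 library, and Tap1 was called lower in 1 of 12, without intact blood library 3 (edgeR adjusted p = 0.0226 in blood and 0.0347 in spleen). In spleen none of the 8 was called with all libraries, 6 had a negative log2 fold change, and Tap2 was at -0.22 (edgeR adjusted p = 0.266).

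Of the 11 interferon response genes, 1 rose and 2 fell in blood, where they summed to 183 to 571 CPM in intact and to 408 to 648 CPM in resected mice. None was called in spleen, where they summed to 583 to 654 CPM in intact and to 305 to 383 CPM in resected mice. Ciita made up the largest part of the intact spleen sum. It was at 409, 349 and 335 CPM in intact and 245, 171 and 52.2 CPM in resected spleen. Rsad2 went the other way, at 16.7, 23.8 and 36.6 CPM in intact and 23.2, 59.4 and 65.4 CPM in resected spleen. The fall of the sum is therefore not a fall of every gene in the list.

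The following 4 factors, known to act on these genes, were not called with resection when all libraries were fitted. Nlrc5, the class I transactivator, had log2 fold changes of -1.01 in blood and -0.96 in spleen, with edgeR adjusted p-values of 0.131 and 0.253. Nlrc5 was called lower in 1 of the 12 fits leaving out 1 library, without intact blood library 3, at -1.43 in blood (edgeR adjusted p = 0.0053) and -0.96 in spleen (edgeR adjusted p = 0.0339). Irf1, an interferon-induced factor, was at 0.38 and 0.25, with edgeR adjusted p-values of 0.290 and 0.615. Nfe2l1, the factor that raises standard proteasome genes when degradation is blocked, was at 0.12 and -0.35, with edgeR adjusted p-values of 0.756 and 0.417. Nfe2l2, the antioxidant factor, was at 0.55 and -0.39, with edgeR adjusted p-values of 0.106 and 0.352. Between tissues of intact mice Nfe2l2 was lower in blood, by a log2 difference of -1.13 (edgeR adjusted p = 0.0156), a call lost without intact spleen library 1 or 2 or intact blood library 1 (range -1.25 to -0.85). Zfand2a, a stress-induced proteasome partner, was higher in blood by 1.69 (edgeR adjusted p = 0.0187), a call lost without intact spleen library 1 or 2 (range 1.52 to 2.25).

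**Figure D5:**
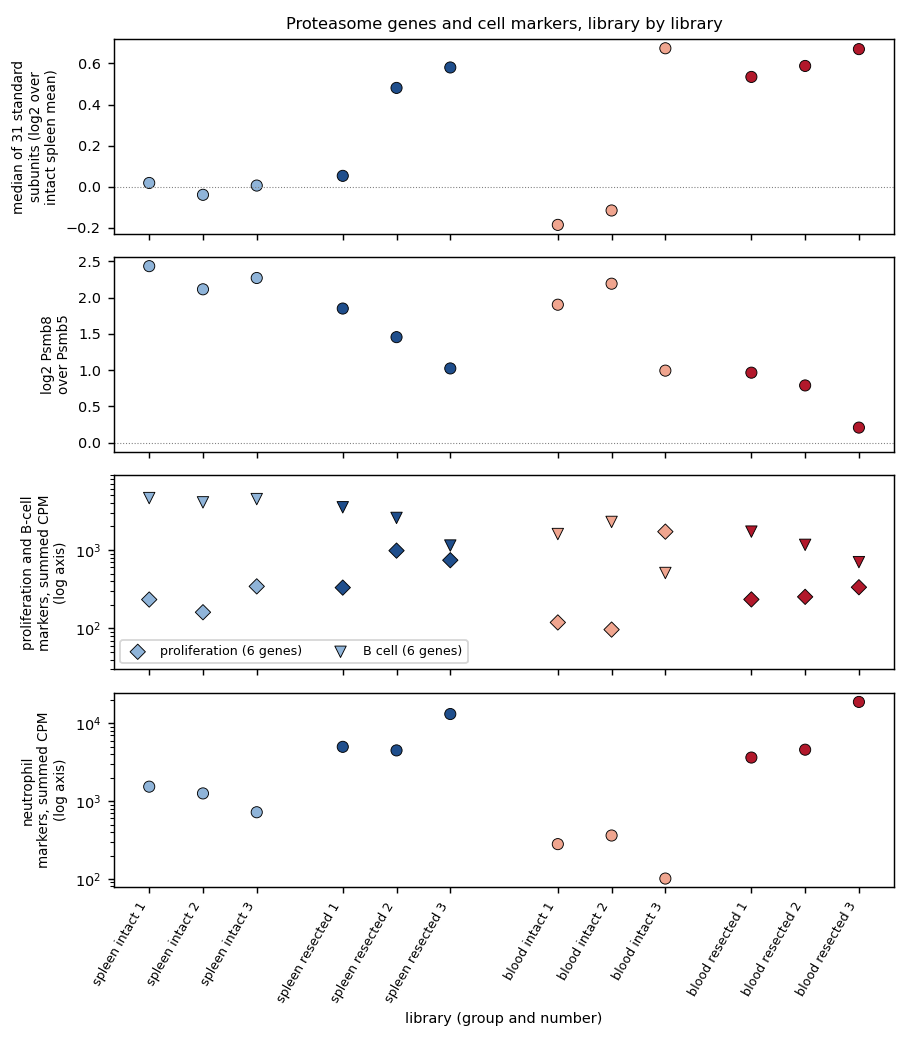
For each library, from the top: median of the 31 standard subunits on the log2 scale relative to the mean of intact spleen, log2 ratio of Psmb8 to Psmb5 counts, summed CPM of 6 proliferation and 6 B-cell markers (log axis), and summed CPM of 8 neutrophil markers (log axis). The proliferation sum is highest in intact blood library 3 (1717 CPM), whose subunit median is 0.67. The resected blood libraries, with medians of 0.53, 0.59 and 0.67, have proliferation sums of 235, 253 and 335 CPM. Resected spleen library 1 has a sum of 332 CPM and a median of 0.05. In each of the 4 groups the library with the lowest B-cell sum has the lowest Psmb8 to Psmb5 ratio. This does not hold in intact spleen for the ratios of Psmb9 to Psmb6 and Psmb10 to Psmb7, which are not shown here. Between groups, resected blood library 1 has a higher B-cell sum than intact blood library 1 and a lower Psmb8 to Psmb5 ratio.

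Markers of several cell types also differed between intact and resected libraries. All 8 neutrophil markers rose in blood and 2 of 8 in spleen. Library by library the neutrophil sum and the standard subunits did not run in parallel. Intact blood library 3 had the lowest neutrophil sum, 101 CPM, and a subunit median of 0.67. Of the 5 T-cell markers tested, 4 fell in blood, where they summed to 444 to 1061 CPM in intact and 85.0 to 163 CPM in resected mice. None of the 6 B-cell markers was called, but in each group the library with the lowest B-cell sum (4055 CPM in intact and 1141 in resected spleen, 510 in intact and 701 in resected blood) had the lowest Psmb8 to Psmb5 ratio. This pattern was picked after the values were seen. It did not hold in intact spleen for Psmb9 over Psmb6 or Psmb10 over Psmb7, where library 3 had the lowest log2 ratios (0.25 and -0.14). Nor did it hold between the blood groups for Psmb8 over Psmb5. Resected blood library 1 had a B-cell sum of 1717 CPM and a log2 ratio of 0.97. Intact blood library 1 had 1600 CPM and 1.90. Of the red pulp macrophage markers 5 of 6 and of the peritoneal macrophage markers 3 of 3 rose in blood, the latter from 252 to 845 CPM to 3714 to 4586 CPM. Of the red pulp markers, Spic and Vcam1 stayed low in resected blood, at 1.98 to 6.42 and 1.37 to 4.78 CPM. In intact spleen these 2 genes were at 31.3 to 53.3 and 506 to 855 CPM. The highest of the 6 in resected blood were Adgre1 (793 to 1140 CPM), Hmox1 (565 to 801 CPM) and Cd5l (431 to 645 CPM). Whether red pulp macrophages were present in the blood libraries was not tested. The 3 hepatocyte markers summed to at most 1.51 CPM in any library. The part of these cells in the proteasome results was not tested.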

How the data were processed

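Messenger RNA of CD115+ monocytes was sequenced from strand-specific libraries. For each library the authors deposited estimated counts, unscaled, over 67088 entries. The submitters' processing notes name STAR and GRCm39. The counting tool and annotation are not given in the sources used here, nor is a test. The 2558 unassigned transcripts (1.75% to 4.33% of a library) were left out, and accessions were summed to symbols through the RefSeq table of GRCm38.p6, which added to 3 members. Deposited estimated counts were then rounded.

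Features kept by filterByExpr (20135) were fitted with edgeR 4.0.16 under R 4.3.3 (TMM, robust quasi-likelihood, 12 libraries, 4 groups, no covariates), called at a Benjamini-Hochberg adjusted p under 0.05. SE is the absolute log2 fold change over the root of F. DESeq2 1.42.0 and the other alternatives are in the closing section. Ratios used a pseudocount of 0.5 counts. Lengths and coding sequences came from GENCODE transcripts. Limits cover counting error only.

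Values are given for the immunoproteasome, Psmb5, Psmb6, Psmb7 and, per comparison, up to 3 called members with the smallest p in each direction. Members, the pathway list and the marker lists were chosen with earlier results of these data known. Of the markers, Trac and, of the pathway list, Paaf1 were not tested. One gene of the pathway list is counted but not reported singly here.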

Additional observations from a re-analysis of the deposited data

How the results depend on the processing

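The counts of called members depended on the fit. Higher and lower calls, 5 and 1 with resection in blood, became 12 and 3 in DESeq2, 8 higher with RLE size factors, 0 lower without the low-count filter, 0 and 0 when only the 2 groups were fitted, and 1 and 0 with an absolute log2 fold change above 1. In spleen, 0 and 1 became 4 and 4 in DESeq2, 1 higher with 10 counts required in every library, 0 lower with RLE, without the filter or with entries as deposited, 2 lower with the 2 groups alone and 0 with the fold limit. Between tissues of intact mice, 1 and 0 became 2 higher in DESeq2 and 0 with the fold limit. After resection, 0 and 1 became 6 higher in DESeq2, 3 with RLE or without haemoglobin genes, 2 without the filter, with 10 counts required or with entries as deposited and 1 with the 2 groups alone, and 0 lower without the filter, without haemoglobin genes, with the 2 groups alone or with the fold limit. The share of all features called changed with these fits as well, leaving the fold limit aside. Higher calls with resection ran from 5.40% to 15.5% in blood and from 0.182% to 7.25% in spleen. Lower calls ran from 3.95% to 15.1% in blood and from 0.170% to 6.52% in spleen. Between tissues higher calls ran from 2.28% to 9.78% in intact mice and from 4.65% to 15.0% after resection. Lower calls after resection ran from 3.82% to 13.5%. The causes were not tested.

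Leaving out 1 library gave 2 to 29 higher and 0 to 2 lower calls in blood, 0 to 10 and 0 to 3 in spleen, 0 to 2 higher in intact mice, and 0 to 11 and 0 to 1 after resection. The upper ends of 29, 10, 3 and 11 came without intact blood library 3. The share of all features called higher ran from 6.41% to 11.1% in blood and from 0.00473% to 5.09% in spleen. It ran from 1.54% to 6.09% in intact mice and from 5.08% to 14.0% after resection. The share called lower ran from 4.75% to 10.5% in blood, 0.00% to 4.50% in spleen and 3.76% to 14.4% after resection. The upper ends of these shares also came without that library. The ratio differences ran from -1.11 to -0.66 (resection) and -0.83 to -0.38 (tissue) for Psmb9 over Psmb6, and from -1.18 to -0.78 and -0.20 to 0.20 for Psmb10 over Psmb7, the last reversing without intact spleen library 2 (1.9e-04), resected spleen library 1 (0.068), intact blood library 3 (0.20) or resected blood library 3 (0.049). Single log2 fold changes that reversed were Psmb10 in blood (1.8e-04 in DESeq2 and with RLE, 8.3e-04 with entries as deposited, -0.14 to 0.15 leaving out 1 library), Nfe2l1 in blood (-0.13 to 0.31), Irf1 in spleen (-0.026 to 0.44) and Psmb8 between tissues after resection (-0.21 to 0.088).

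The standard subunits kept 30 or 31 positive log2 fold changes of 31 with resection in both tissues in every fit, with medians from 0.31 to 0.70 in blood and 0.31 to 0.53 in spleen. The 5 immunoproteasome genes stayed negative in spleen in every fit. Libraries with the same number were not paired by any label, and their deviations correlated weakly (r from -0.046 to 0.189). A fit with the replicate number as a block gave 6 higher and 1 lower in blood, 0 and 1 in spleen (Psmb10, not Psme2b), 0 and 1 in intact mice (Psmb9 lower, Psme3 not called) and 2 and 1 after resection. It called 8.96% and 7.78% of all features in blood and 0.482% and 0.472% in spleen. The shares were 3.34% and 3.71% in intact mice and 7.45% and 8.68% after resection.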

Other observations

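The calls of the remaining marker lists with resection were as follows. Of all features, 10.8% were called higher and 10.3% lower in blood, and 1.02% and 1.03% in spleen. Of 8 monocyte markers 2 rose and 1 fell in blood. Of 4 plasma cell markers 2 rose, of 4 plasmacytoid dendritic cell markers 1 fell and of 4 platelet markers 1 rose in blood. The platelet markers summed to 74.0 to 272 CPM in intact and 771 to 863 CPM in resected blood. Pf4 alone was at 20.2 to 72.7 and 537 to 643 CPM. Of 6 red pulp macrophage markers 1 rose in spleen. None of 4 NK, 5 conventional dendritic and 7 erythroid markers was called in either tissue.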
